A study of Drosophila melanogaster with 4 samples.

Results

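The genes described here are those of Drosophila melanogaster that encode the septins, the cortical scaffold anillin and the annexins. They were chosen by name, as proteins of the cell cortex and plasma membrane with roles in cytokinesis and membrane repair, and 9 genes were listed. A spot of their own was measured for 8 of them, with 11 spots in all, among 8240 genes with a value on at least 3 of the 4 arrays. The septins Septin1, Septin2, Septin4 and Septin5 (4 of 5 septins listed), scra, which encodes anillin, and the annexins AnxB9, AnxB10 and AnxB11 were measured. The septin gene pnut was not analysed here.

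Each of the 4 arrays compared total RNA of laser wounded embryos with that of embryos handled in the same way but left unwounded, both frozen straight after the procedure (0 min). Embryos of both groups were collected over 0 to 1 h, when the embryo is a syncytium that runs largely on RNA supplied by the mother, and both carried the actin reporter sGMCA. The RNA came from many whole embryos pooled, of which the wounds touched only part of the surface. The arrays, named experiments 3, 4, 7 and 8, hold 1 log2 ratio of both dye channels at each spotted cDNA clone. The wounded sample carried Cy3 and the unwounded sample Cy5 in experiments 3, 7 and 8, and the dyes were exchanged in experiment 4.

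Whether the deposited ratio is Cy5 over Cy3 on every array or already follows the 2 conditions is a point the sources leave unstated. None of the values is therefore read as higher or lower in wounded embryos. Values of single arrays are as deposited. Means are given with the sign of experiment 4 turned, as for Cy5 over Cy3, and beside them with experiment 4 not turned, and a signed mean carries the sign that experiments 3, 7 and 8 have as deposited. No intensities come with the ratios, so levels of RNA, and whether a clone read any transcript at all, could not be checked. The array medians lay between -0.02985 and 0.005402. Experiment 3 spread most, with an SD of 0.391 over its spots, against 0.282 to 0.326 on the other arrays. Over probes, which are not independent replicates, the Pearson correlation between experiments 7 and 8, with the same dyes, was -0.27, and the other pairs of arrays lay between -0.14 and 0.30. The methods give the 4 samples of each kind as independent replicates, so the arrays are the replicates of each test.

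Septins are GTP-binding proteins that join into rods and filaments beneath the plasma membrane. They collect at the cleavage furrow and, in the fly embryo, at the front of the membranes that later enclose the nuclei. Anillin links septins to actin and to nonmuscle myosin, and is needed for contractile rings to hold their shape. Annexins bind acidic phospholipids in a calcium-dependent way. In mammalian cells they gather at torn plasma membrane within moments of the calcium influx, and in wounded fly embryos AnxB9 is known to act in actin stabilization. The comparison asks whether transcripts of these genes differed immediately after wounding.

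None of the 8 measured genes differed between wounded and unwounded embryos at the threshold of the study, an FDR of 5% and a mean change of 1.5-fold or more in either direction, 0.58 on the log2 scale. This was tested with limma over all 8240 genes, of which 0% passed, with experiment 4 turned or not. The lowest adjusted p of the 8 genes was 0.998 with experiment 4 turned and 0.997 with it not turned. An unadjusted p under 0.05 was reached by 0 of 8 with experiment 4 turned, beside 4.93% of all genes, and by 1 of 8, scra, with experiment 4 not turned, beside 2.51%. Averaged over their clones, 0 of 8 genes reached 1.5-fold on any single array, beside 13% of all genes. By array the share of all genes past 1.5-fold was 5.47%, 2.56%, 5.06% and 3.33% in experiments 3, 4, 7 and 8. The median size of the mean over the 8 genes was 0.0294, beside 0.0652 over all genes, and with experiment 4 not turned it was 0.0679 beside 0.064. In whole embryos fewer nuclei or cytoplasm that hold a transcript and less of it in each cannot be told apart.

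**Figure D1:**
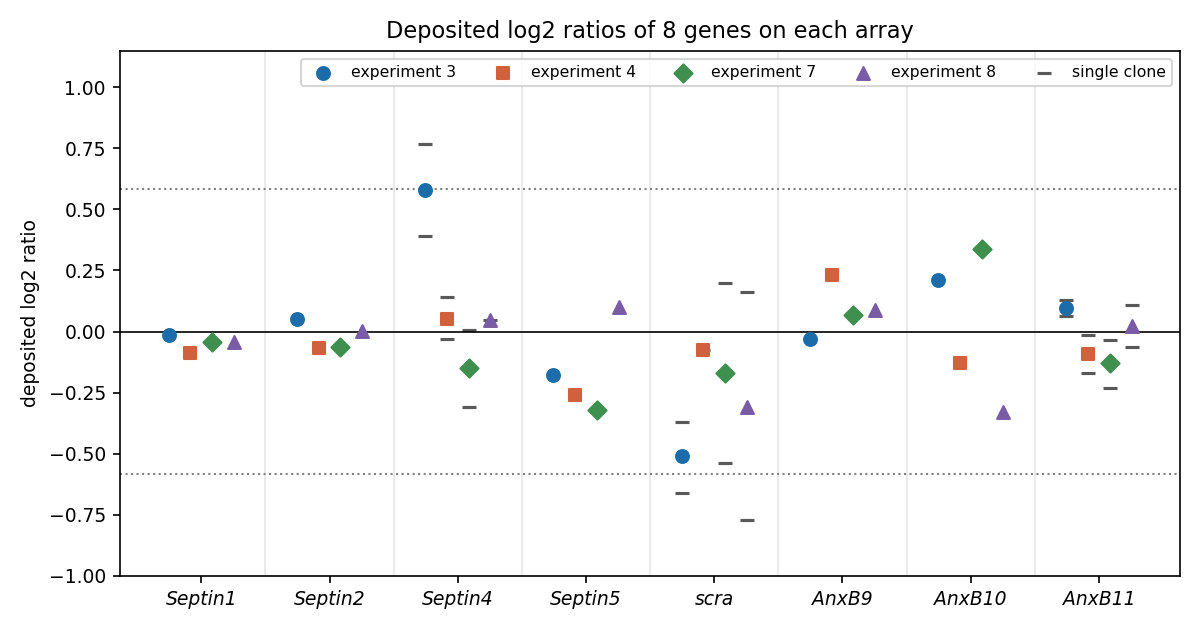
Deposited log2 ratio (y axis) of each measured septin gene, of scra and of each annexin gene (x axis) in experiments 3, 4, 7 and 8. Coloured points are the mean over the clones of a gene, grey dashes are single clones of the 3 genes that have 2, and dotted lines mark 1.5-fold. Septin1 and Septin2 lie close to 0 on each array. A clone of Septin4 lies beyond the lines in experiment 3, and a clone of scra in experiments 3 and 8.

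Septin1 and Septin2 encode subunits of the fly septin complex with the product of pnut, and both stayed close to a ratio of 0. Septin1 had deposited log2 ratios of -0.016, -0.087, -0.042 and -0.042 in experiments 3, 4, 7 and 8. Septin2 had ratios of 0.05, -0.066, -0.062 and 0.0035 on the same arrays. Both genes were under 0.1 in size on all 4 arrays, which held for 5.4% of 8222 genes with a value on each array. The mean of Septin1 was -0.0033 ± 0.0612 (SD, n = 4 arrays) with experiment 4 turned, and 6.07% of all genes had a smaller SD. For Septin2 the mean was 0.015 ± 0.0574 (SD, n = 4 arrays), with a smaller SD in 4.94% of genes. A clone that reads no transcript can also give ratios near 0, and this was not tested because no intensities were used. The 95% confidence intervals of limma, unadjusted, ran from -0.16 to 0.16 for Septin1 and from -0.14 to 0.17 for Septin2. With experiment 4 not turned they ran from -0.20 to 0.11 and from -0.18 to 0.14.

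Septin5, a close relative of Septin2, was read by 1 clone and varied more. Its ratios were -0.18, -0.26, -0.32 and 0.10 in experiments 3, 4, 7 and 8. Experiments 3, 4 and 7 were thus all below 0, and experiment 8, with the same dyes as experiments 3 and 7, was above it. With experiment 4 turned the mean was -0.033 ± 0.262 (SD, n = 4 arrays, limma adjusted p = 0.998), with an interval from -0.30 to 0.24. With experiment 4 not turned it was -0.16 (limma adjusted p = 0.997), with an interval from -0.38 to 0.06. Clones of related genes can hybridise with each other's transcripts, and whether those of Septin2 and Septin5 do was not tested. Septin2 and Septin5 had the same sign in experiments 4, 7 and 8 and opposite signs in experiment 3. In experiment 7 their ratios were -0.062 and -0.32. These ratios cannot show whether the clones do so.

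Septin4, a further septin gene of the fly, had the largest single ratio of the 8 genes. Its ratios, averaged over 2 clones, were 0.58, 0.053, -0.15 and 0.047 in experiments 3, 4, 7 and 8. Only experiment 3 lay far from 0, just short of 1.5-fold. Clone LD19219 had ratios of 0.39, -0.031, 0.0065 and 0.047 on these arrays. Clone LP06017 had 0.77, 0.14 and -0.31 in experiments 3, 4 and 7 and no value in experiment 8, so the gene rests on 1 clone there. Both clones were thus above 0 in experiment 3, and in experiments 4 and 7 their signs were opposite. With experiment 4 turned the mean of Septin4 was 0.11 ± 0.328 (SD, n = 4 arrays, limma adjusted p = 0.998), and 83.4% of genes had a smaller SD. Without experiment 3 it changed sign, to -0.0525. The 13 measured genes of differentiated muscle, which embryos of this age should hardly transcribe, had mean ratios of 0.67, 0.37, -0.0083 and 0.077 in experiments 3, 4, 7 and 8, with 8, 13, 6 and 6 of 13 above 0, and their part in the value of Septin4 was not tested.

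The 3 genes with the pattern nearest to that of Septin4, by Euclidean distance over the 4 deposited ratios among 8221 genes, were NimC4, CG10211 and RyR. NimC4, which encodes a receptor of phagocytes, had ratios of 0.57, 0.032, -0.11 and 0.061 in experiments 3, 4, 7 and 8, at a distance of 0.0493. CG10211 and RyR, the ryanodine receptor of calcium stores, were at distances of 0.16 and 0.17. The distances are a description, over 4 values only.

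The gene scra, which encodes anillin, had the largest mean of the 8 genes and the only one that kept its sign under each alternative run. Some alternatives, such as the median of its clones, could not change its mean. Averaged over 2 clones, its ratios were -0.51, -0.075, -0.17 and -0.31 in experiments 3, 4, 7 and 8. All 4 deposited ratios were below 0, so with experiment 4 turned, as for Cy5 over Cy3, that array had the opposite sign to the others. With experiment 4 turned the mean was -0.23 ± 0.247 (SD, n = 4 arrays, limma adjusted p = 0.998), and 92.6% of genes had a mean of smaller size. With experiment 4 not turned it was -0.27 ± 0.191 (SD, n = 4 arrays, limma adjusted p = 0.997). An exact two-sided permutation test that flips the signs of the 4 arrays gave p = 0.25 with experiment 4 turned and p = 0.125 with it not turned, the smallest that 4 arrays allow. Any gene with one sign on all 4 arrays reaches this value in the test. Septin1, with a mean of -0.047, also did so with experiment 4 not turned. With a dye term in the fit the mean was -0.13, with an interval from -0.39 to 0.13.

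The average of scra hides clones that went apart. Clone GH27072 had ratios of -0.66, -0.075, 0.20 and -0.77 in experiments 3, 4, 7 and 8. Clone LD23793 had -0.37, -0.54 and 0.16 in experiments 3, 7 and 8 and no value in experiment 4. Both clones were below 0 in experiment 3 alone, and their signs were opposite in experiments 7 and 8. The difference between them was 0.74 in size in experiment 7 and 0.93 in experiment 8. Among genes with 2 clones, 95% of 1101 had a smaller difference in experiment 7, and 97.3% of 1086 had one in experiment 8. Neither clone had one sign over experiments 3, 7 and 8, although the averages did. Restricted to clone GH27072, the clone with a value on each array, the mean of scra was -0.29, with an interval from -0.74 to 0.16 (limma adjusted p = 0.998). This restriction was added once the values were known.

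**Figure D2:**
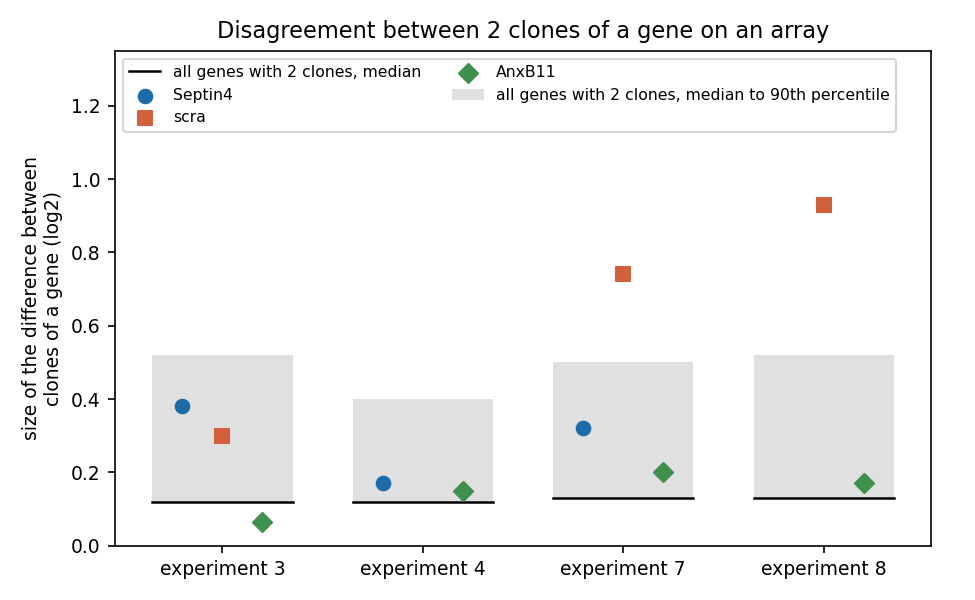
Size of the difference in log2 ratio between 2 clones of the same gene (y axis) on each array (x axis), for Septin4, scra and AnxB11. Black lines are the median over all genes with 2 clones and grey boxes reach from there to the 90th percentile. The clones of scra differ by 0.74 in experiment 7 and 0.93 in experiment 8, above the boxes, and the differences of Septin4 and AnxB11 stay below the tops of the boxes.

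AnxB9, the annexin known from fly wound repair, had ratios of -0.029, 0.23, 0.069 and 0.088 in experiments 3, 4, 7 and 8. The highest value was that of experiment 4, the array with exchanged dyes, and the other arrays lay within 0.1 of 0. The mean was -0.025 ± 0.145 (SD, n = 4 arrays) with experiment 4 turned, and 0.089 with experiment 4 not turned, so even its sign depends on the unknown direction of the ratio. The intervals ran from -0.22 to 0.17 and from -0.088 to 0.27. The gene kst encodes a heavy spectrin that binds AnxB9, and was named after its values had been seen. Its ratios of 0.19, 0.12, -0.34 and 0.013 on the same arrays gave a mean of -0.065 with experiment 4 turned (limma adjusted p = 0.998).

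AnxB10 had the widest range of the annexins. Its ratios were 0.21, -0.13, 0.34 and -0.33 in experiments 3, 4, 7 and 8. Experiments 7 and 8, which have the same dyes, gave ratios of about equal size and opposite sign. With experiment 4 turned the mean was 0.087 ± 0.289 (SD, n = 4 arrays, limma adjusted p = 0.998), and 78.3% of genes had a smaller SD. Without experiment 8, with experiment 4 turned, the mean was 0.22 (limma adjusted p = 0.718).

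AnxB11 was the steadiest gene with 2 clones. Averaged over both, its ratios were 0.098, -0.092, -0.13 and 0.024 in experiments 3, 4, 7 and 8. Clone GH16395 had 0.13, -0.016, -0.23 and 0.11 on these arrays and clone GM13766 had 0.065, -0.17, -0.034 and -0.062. Their differences ran from 0.064 to 0.20 in size, beside medians of 0.12 and 0.13 over all genes with 2 clones. The mean was 0.02 ± 0.108 (SD, n = 4 arrays) with experiment 4 turned and -0.026 with it not turned.

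The 8 genes did not share a pattern over the arrays. In experiment 3 the ratios ran from -0.51 for scra to 0.58 for Septin4, with 4 above 0 and 4 below. In experiment 7 they ran from -0.32 for Septin5 to 0.34 for AnxB10, with 2 above 0 and 6 below. The 4 septin genes had mean ratios of 0.11, -0.089, -0.14 and 0.028 in experiments 3, 4, 7 and 8, and the 3 annexin genes 0.094, 0.0041, 0.09 and -0.071. Experiments 7 and 8 gave opposite signs for 5 of 8 genes, Septin2, Septin4, Septin5, AnxB10 and AnxB11, beside 60.6% of all genes. Septin5 and AnxB10 had opposite signs on both arrays, so no turning of an array brings them together. With experiment 4 turned, 0 of 8 genes had one sign on all 4 arrays, beside 12% of all genes. With it not turned 2 of 8 did, Septin1 and scra, beside 10%.

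Genes of the first zygotic transcription, whose level depends on the age of the embryo, differed more between these arrays. The 27 measured early zygotic genes had mean ratios of -0.18, -0.087, -0.52 and 0.26 in experiments 3, 4, 7 and 8, with 1 of 27 above 0 in experiment 7 and 22 of 27 in experiment 8. Septin5 had the same sign as their mean on each array. Septin1 and scra did in experiments 3, 4 and 7, and Septin2 and AnxB11 in experiments 4, 7 and 8. Septin4 had it in experiments 7 and 8, AnxB9 in experiments 3 and 8, and AnxB10 in experiment 4 alone. The share of all genes with these signs was not counted. The part of the early zygotic genes in the values of the septins, scra and the annexins was not tested.

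**Figure D3:**
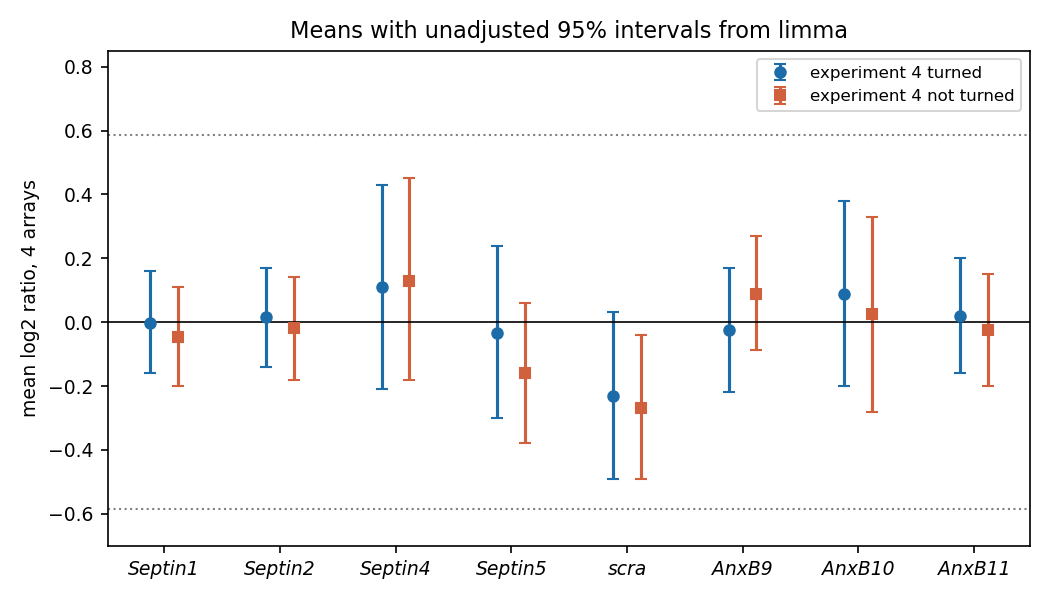
Mean log2 ratio over 4 arrays (y axis) of each measured gene (x axis), with experiment 4 turned (circles) and not turned (squares). Bars are unadjusted 95% confidence intervals from limma and dotted lines mark 1.5-fold. Each interval lies between the lines, and the one of scra with experiment 4 not turned, from -0.49 to -0.04, leaves out 0.

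The arrays also set bounds on what could have gone unseen. Averaged over clones, the 95% interval of the mean lay within 1.5-fold in both directions for 8 of 8 genes with experiment 4 turned and not turned, beside 92.2% and 91.9% of all genes. The widest bounds correspond to 1.34-fold for Septin4 and 1.4-fold for scra, and the narrowest to 1.12-fold for Septin1, with experiment 4 turned. A clone that reads no transcript can also give a narrow interval. The bounds therefore hold only where the clones read their genes, which was not tested. By single clones the bound held for 8 of 11 with experiment 4 turned and not turned, beside 90.7% and 90.2% of 11848 probes. The clones without it were LP06017 of Septin4, from -0.48 to 0.69, and GH27072 and LD23793 of scra, from -0.75 to 0.17 and from -0.65 to 0.15. Of the 11 clones, 0 passed the threshold in limma (0% of 11848 probes) and 0 had an unadjusted p under 0.05 (5.87%, and 2.97% with experiment 4 not turned). A ratio past 1.5-fold was found for 2 of 11 clones in experiment 3, GH27072 and LP06017 (5.82% of probes), and for 1 of 10 in experiment 8, GH27072 (4.18%). In experiments 4 and 7 it was found for 0 of 10 and 0 of 11 clones (3.17% and 5.8%). The intervals hold for the direction assumed for experiment 4. If that direction were wrong, experiment 4 would offset part of a real difference in the mean. They also take in any effect of the dyes, since experiments 3, 7 and 8 share their dyes. With a dye term the intervals ran from -0.38 to 0.48 for Septin4, from -0.31 to 0.50 for AnxB10 and from -0.39 to 0.13 for scra. These still lay within 1.5-fold, and the share of all genes that did so was not counted for this fit. Only experiment 4 has exchanged dyes, so this fit leans on that array.

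**Figure D4:**
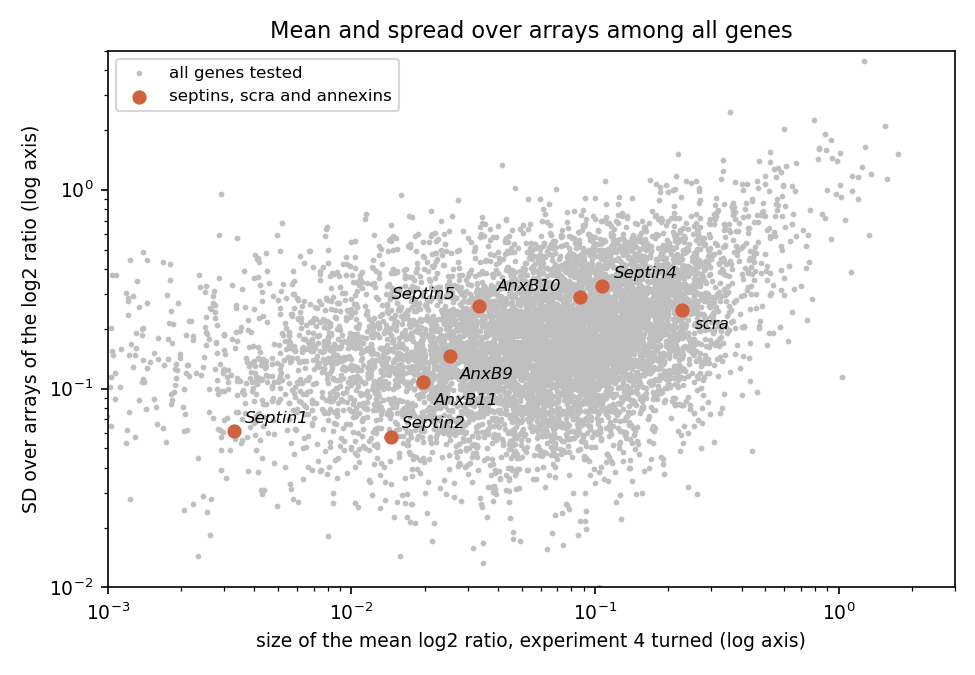
Size of the mean log2 ratio with experiment 4 turned (x axis, log scale) against its standard deviation over arrays (y axis, log scale) for 8240 genes (grey), of which 66 lie outside the axes, and for the septins, scra and annexins (red). Septin1 and Septin2 lie at the low end of the spread, with an SD of 0.0612 and 0.0574, and scra has the largest mean of the 8 genes, 0.23 in size.

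Genes that work with these proteins were described in 3 lists, with 0 members past the threshold in any of them (0% of all genes). Of 31 genes of the cytokinetic and cortical ring, 14 were measured, with a median size of the mean of 0.0856 beside 0.0652 over all genes. An unadjusted limma p under 0.05 was found for 2 of 14, slam and fwd (4.93% of all genes), with experiment 4 turned, and for 0 of 14 with it not turned (2.51%). The gene slam, which acts in the membrane growth of cellularization, had ratios of -0.40, 0.10, -0.53 and -0.034 in experiments 3, 4, 7 and 8 (limma adjusted p = 0.998). It is also an early zygotic gene. For capu, an actin nucleator of the oocyte, a ratio of -2.61 in experiment 3 made the lowest mean of the list, -0.99 (limma adjusted p = 0.998). Its other ratios were 0.15 and -0.21 in experiments 4 and 7, with no value in experiment 8. The highest means were those of chic, which encodes profilin, and of pbl, a gene needed for cytokinesis, at 0.14 and 0.038.

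The membrane skeleton list held 14 measured genes of 15, and 3 of 14 had an unadjusted limma p under 0.05 with experiment 4 turned (4.93% of all genes) and 0 of 14 with it not turned (2.51%). They were beta-Spec, which encodes a spectrin, hts, the adducin gene, and mys, an integrin subunit gene. The ratios of beta-Spec were -0.41, 0.41, -0.50 and -0.069 in experiments 3, 4, 7 and 8, with a mean of -0.35 with experiment 4 turned (limma adjusted p = 0.915) and -0.14 with it not turned. Those of mys were -0.079, 0.30, -0.31 and -0.18 (limma adjusted p = 0.958 with experiment 4 turned). The highest means were those of Vinc, the vinculin gene, and Ank2, an ankyrin gene, at 0.053 and 0.042. The median size of the mean over this list was 0.0475, and 0.104 with experiment 4 not turned, beside 0.064 over all genes. Its mean ratios were 0.075, 0.20, -0.14 and -0.0082 in experiments 3, 4, 7 and 8, with 9, 13, 4 and 6 of 14 above 0. What the values of the whole list in experiment 4 add to the 3 unadjusted p-values was not tested.

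Of 35 genes of ESCRT complexes, which remodel and pinch membranes, and of membrane fusion and calcium response, 18 were measured. An unadjusted limma p under 0.05 was found for 0 of 18 with experiment 4 turned (4.93% of all genes) and for 0 of 18 with it not turned (2.51%). The 95% interval was within 1.5-fold for 18 of 18 both ways, beside 92.2% and 91.9% of all genes. The median size of their means was 0.0358. Their lowest means were those of Esyt2, an extended synaptotagmin gene, and nSyb, a synaptobrevin gene, at -0.18 and -0.13, and the highest those of Cals, the calsyntenin gene, and Snap29, a SNARE gene, at 0.091 and 0.063.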

How the data were processed

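The authors hybridised Cy3- and Cy5-labelled cDNA to spotted arrays of fly cDNA clones, analysed the images with GenePix software, and deposited 1 log2 ratio per spot, which limma's loess had normalized array by array (version not given in the sources used here). Dim and questionable spots are removed by the methods, and whether before deposit is not stated. Of 128 plant control spots, 14 had a value on all 4 arrays, beside 11789 of 11984 probes. The reason for the missing values was not tested. Of 12144 spots, 160 control spots were left out. Genes came from the platform annotation, for probes with a single gene (9917 of 11984 probes, 625 with several genes, 1442 with none listed), and 9746 of these probes were named by gene ID through the RefSeq table of Release 6, the others as annotated. Spots of a gene were averaged per array, and 8240 genes measured on 3 or more arrays entered a limma fit (limma 3.58.1, R 4.3.3) with lmFit and eBayes, with two-sided p-values adjusted by Benjamini-Hochberg over all genes. The number of arrays limits the precision, and no depth applies. Alternatives were the sign of experiment 4, a dye term, centring, scaling, the filter on missing values, the averaging of spots, the threshold and leaving out each array. The arrays form 1 group of 4 replicates, with numbers 3, 4, 7 and 8 from the titles. All members are named, as are the 2 highest and 2 lowest members of each partner list and the 3 genes nearest in pattern to the member with the largest single ratio. The genes kst, fwd and hts were named after their values were seen. The members and lists were chosen with earlier results of these data known.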

Additional observations from a re-analysis of the deposited data

Results flagged for a closer look

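Among 34 sets of 4 values (genes, single clones of genes with 2 clones, and lists, each with experiment 4 turned and not turned), 1 held an array that Dixon's test sets apart, from its distance to the nearest other array as a share of the range. Chance gives 1.7 such sets. It was clone LD19219 of Septin4, with a log2 ratio of 0.39 in experiment 3 and the other 3 arrays between 0.0065 and 0.047 in size, with experiment 4 turned. With experiment 4 not turned the same value did not stand out at this limit. The other clone of Septin4, LP06017, was also highest in experiment 3, at 0.77.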

How the results depend on the processing

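None of the 8 septin, anillin and annexin genes passed the threshold under the 18 alternatives run, and their lowest adjusted p from limma was 0.718. Over 16 alternatives, scra kept the sign of its mean, but some of these could not change it. The median of its clones and the filters on missing values returned the same mean, -0.228. Without experiment 4 the fits turned and not turned are the same, at -0.329. With experiment 4 not turned, the sign changed for Septin2 (-0.0184), AnxB9 (0.0893) and AnxB11 (-0.0261). With a dye term it changed for Septin1 (0.0266) and Septin5 (0.0636), and with array medians subtracted for Septin1 (0.00929). Leaving out each array, with experiment 4 turned or not, gave means from -0.0569 to 0.00974 for Septin1, -0.0414 to 0.04 for Septin2, -0.0525 to 0.228 for Septin4, -0.251 to 0.0618 for Septin5, -0.329 to -0.132 for scra, -0.0633 to 0.129 for AnxB9, -0.0797 to 0.225 for AnxB10 and -0.0673 to 0.071 for AnxB11. The median size of the mean over genes was 0.0679 with experiment 4 not turned and ran from 0.0191 to 0.115 without each array. Genes with one sign on all arrays numbered 2 with experiment 4 not turned, beside 10% of all genes. They numbered 1 (Septin4) with only clones measured on all arrays, and 0 to 3 without each array. One sign is reached more easily on fewer arrays. For settings other than experiment 4 turned or not, shares of all genes were not taken, here or in the counts below. An unadjusted p under 0.05 was reached by 1 gene with experiment 4 not turned, scra, and by 0 to 1 without each array (scra without experiment 4 and, experiment 4 not turned, without experiment 7, AnxB10 without experiment 8, and Septin5 without experiment 8 with experiment 4 not turned). Intervals within 1.5-fold held for 6 to 8 genes without each array, with those of Septin4 (up to 0.59) and scra (down to -0.59) wider without experiment 4 and that of scra also without experiment 7 when experiment 4 was turned. In experiment 3, 1 gene, Septin4, reached 1.5-fold with array medians subtracted and with scaling between arrays. With only clones measured on all arrays it was scra, read by GH27072 alone, in experiment 3 (-0.66) and in experiment 8 (-0.77). The cause of these shifts was not tested.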
